A study of Mus musculus with 6 samples.

Results

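miR-221 and miR-222 are the 2 guide strands of one small miRNA cluster, and they were followed here in mouse bone marrow-derived macrophages with and without Dicer. They are the 2 rows, among 596 miRNA assays of a TaqMan RT-PCR panel, whose name is miR-221 or miR-222 once the species prefix and the assay number are dropped. Both rows lie in the first of the panel's 2 blocks of rows, which has 335 miRNA assays and 5 endogenous control RNAs of its own. The rule for the rows used names and no measured value, though it was set with earlier results of these data known.

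The macrophages were grown for 7 days from femoral marrow of male mice aged 6 to 8 weeks, with L929-conditioned medium, which supplies the growth factor that macrophages need. Apoe was absent from all 6 mice (Apoe–/–), which also carried LysM-Cre, a Cre driver active in the myeloid lineage. In the WT group (n = 3) Dicer was wild type (Dicer wt/wt), and in the KO group (n = 3) both Dicer alleles were floxed (Dicer flox/flox), so that deletion depends on Cre activity in each cell. The panel holds no assay of Dicer mRNA, and how complete the deletion was in these cultures was not checked.

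Dicer cuts the precursor hairpin of a miRNA into a short duplex, from which the guide strand is loaded into Argonaute and pairs with target mRNAs mainly through its seed. miR-221 and miR-222 are known for repressing the cell cycle inhibitor p27 (Cdkn1b), the stem cell factor receptor Kit and the adhesion molecule Icam1, and are studied in haematopoietic progenitors, in vessel wall cells and in tumours. The comparison asked how far each depends on Dicer in macrophages.

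The mature sequences are shown because they define which miRNAs can share targets and which assays read similar molecules. They are from RefSeq (GRCm38.p6), 5′ to 3′, and capitals mark the seed, bases 2 to 8.
miR-221: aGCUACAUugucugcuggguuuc
miR-222: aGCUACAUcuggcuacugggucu
miR-1928: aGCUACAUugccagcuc
miR-221 and miR-222 have the same seed and share their first 8 bases. Compared position by position without gaps, they have the same base at 11 of 23 positions. Both also hold the run cugggu near the 3′ end, out of step with each other. The count without gaps therefore misses likeness in the 3′ part. miR-1928, a shorter entry from another chromosome, shares its first 10 bases with miR-221 and its first 8 with miR-222. These 3 names were the complete set with this seed among the 1738 mature entries of the table. Of 519 guide names on the panel, 403 were matched to a mature entry, and the same 3 carried the seed.

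Both guide strands come from the 3′ arm of their hairpins, as the capitals show in the precursors that Dicer cuts.
Mir221 hairpin: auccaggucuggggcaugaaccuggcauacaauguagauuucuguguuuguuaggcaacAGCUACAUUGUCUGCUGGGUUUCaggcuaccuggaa
Mir222 hairpin: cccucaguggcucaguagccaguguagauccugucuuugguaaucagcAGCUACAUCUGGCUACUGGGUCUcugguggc
In GRCm38.p6 the Mir221 hairpin lies at chrX:19146294-19146388 and the Mir222 hairpin at chrX:19146893-19146971, both on the minus strand, with 504 bases between them. In the RefSeq gene table no gene other than Mir221 and Mir222 overlaps the cluster. The nearest entries on either side are the pseudogene Gm5383 and the lncRNA Gm14636. No row of the panel is named as a passenger strand of either hairpin.

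The threshold cycle (Ct) falls by 1 for each doubling of template, and wells without amplification were listed at 40. Both miRNAs amplified in all 6 samples, at Ct values from 16.4 to 25.0, well before the ceiling of 35 used here. Levels are given as log2 relative abundance, the mean Ct of the 5 controls of the block minus the Ct of the miRNA in the same sample. The mean control Ct was 21.1, 20.6 and 19.1 in WT replicates 1 to 3 and 22.8, 20.3 and 19.3 in KO replicates 1 to 3, so KO replicate 1 had the latest controls. It was 0.573 cycles later in KO (exact permutation p = 0.8, two-sided). Without KO replicate 1 it was 0.439 cycles earlier in KO (-0.439 as KO minus WT). Taken singly (U6, Y1, U87, snoRNA202 and snoRNA135), the 5 controls differed between genotypes by -0.16 to 0.12 on the log2 scale relative to their own mean.

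miR-221 was lower in Dicer KO macrophages. The WT samples had Ct values of 20.5, 19.7 and 17.7, and the KO samples had 25.0, 21.4 and 19.9. In WT its log2 relative abundance was 0.59, 0.85 and 1.43 (0.96 ± 0.43, SD, n = 3), and it was -2.12, -1.10 and -0.59 in KO (-1.27 ± 0.78, SD, n = 3). Every KO sample lay below every WT sample, with a gap of 1.18 log2 units between the lowest WT and the highest KO sample. KO replicate 1 was the lowest of the 6. Against the geometric mean of WT, the KO samples kept 11.9%, 24.1% and 34.3% of the miR-221 level. The fall was 4.67-fold, or -2.22 ± 0.60 on the log2 scale (SE; 95% confidence interval -3.64 to -0.80), and passed the threshold of 0.05 (limma, Benjamini-Hochberg adjusted p = 0.034). An exact permutation test of this assay alone gave p = 0.1, two-sided, the smallest that 3 samples against 3 allow.

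The call for miR-221 was lost when certain single samples were left out. Its adjusted p was 0.111, 0.113 and 0.0941 without WT replicate 1, 2 or 3 and 0.0672 without KO replicate 2, with limma, while it passed without KO replicate 1 (0.0381) and without KO replicate 3 (0.0363). The loss was not particular to miR-221. The number of panel assays lower in KO at this threshold was 105 with all 6 samples. It was 2 without WT replicate 1, 2 or 3 and 3 without KO replicate 2. The difference of miR-221 itself stayed between -2.56 and -1.80 when any 1 sample was left out.

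miR-222 was also lower in KO on average, but by less than miR-221 and with more spread, and it did not pass the test without a pairing of samples. Ct values were 19.6, 17.7 and 16.4 for WT and 23.3, 19.0 and 17.9 for KO. Its log2 relative abundance was 1.42, 2.82 and 2.74 in WT (2.33 ± 0.79, SD, n = 3) and -0.42, 1.23 and 1.39 in KO (0.73 ± 1.00, SD, n = 3). The highest KO sample was again below the lowest WT sample, but by only 0.030 log2 units, since WT replicate 1 was near the KO level and KO replicates 2 and 3 lay just under it. The KO samples stood at 15.0%, 46.8% and 52.2% of the WT geometric mean, beside 53.3% for WT replicate 1 itself. The difference was -1.59 ± 0.72 on the log2 scale (SE; 95% confidence interval -3.30 to 0.12), a ratio of 3.01-fold (limma, adjusted p = 0.109). The exact permutation p was 0.1, two-sided.

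**Figure D1:**
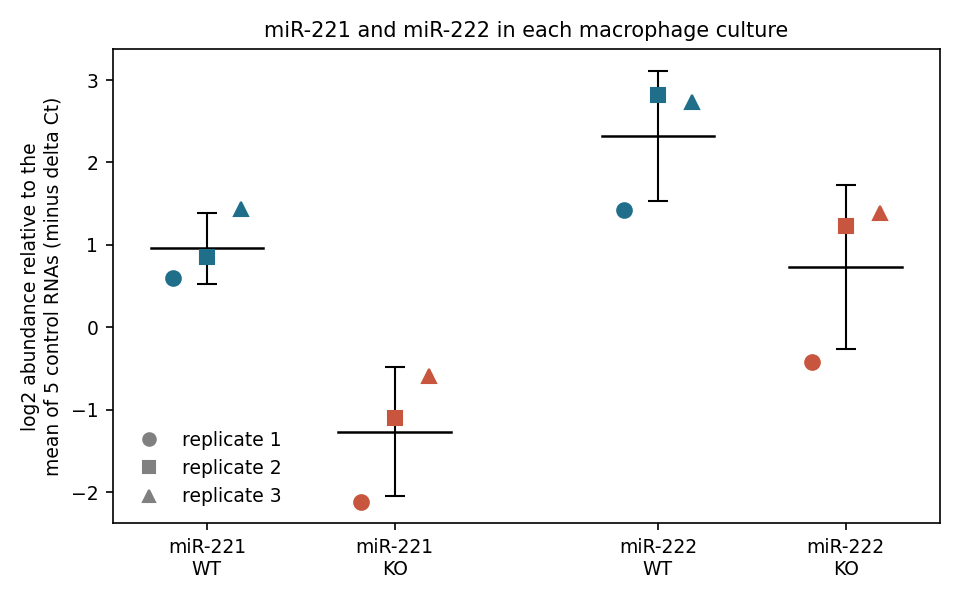
Log2 abundance of miR-221 and miR-222 relative to the mean of the 5 control RNAs of their block (vertical axis) in each WT (blue) and KO (red) culture; symbols mark the replicate number, horizontal bars the group mean and whiskers 1 SD (n = 3). The KO samples of miR-221 lie at least 1.18 log2 units below the WT samples, while for miR-222 WT replicate 1 (1.42) is next to KO replicate 3 (1.39).

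Samples that carry the same replicate number deviated together from their group means over the tested assays, with correlations of 0.228, 0.283 and 0.267. Samples of unlike number gave -0.279 to 0.0102. Deviations from a group mean cancel out within the group, so these correlations are not independent of one another. No label states a pairing, and this one was taken from the same data as the fits with it. Taken as pairs, the 2 miRNAs were lower in KO in 3 of 3 pairs. Any other pairing would give the same count, since every KO sample lay below every WT sample for both. For miR-222 the KO minus WT differences were -1.83, -1.59 and -1.35 in pairs 1, 2 and 3, closer to one another than the samples within either group. With the replicate number added to the fit as a block, its difference of -1.59 had an SE of 0.36 and passed the threshold (limma, adjusted p = 0.0431). For miR-221 the pairs differed by -2.71, -1.94 and -2.02, and its adjusted p with the block was 0.042. Expressed per pair, KO kept 15.3%, 26.0% and 24.7% of miR-221 and 28.1%, 33.2% and 39.2% of miR-222. The culture numbered 1 had the lowest level of both miRNAs in each genotype.

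The background of calls on this panel was high. Of 282 miRNA assays tested, meaning those under Ct 35 in every sample of WT, of KO or of both, 37.2% were lower in KO at an adjusted p under 0.05 and 0.355% were higher (limma). Of the 2 miRNAs here 1 was among the lower ones; with the replicate block the share was 41.8% and both were. A difference below 0 was seen in 87.6% of the tested assays and for both miRNAs here. The KO and WT samples were fully separated, with KO lower, in 59.9% of the tested assays and again for both, so neither feature set the cluster apart from the panel.

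Set against the other assays, both miRNAs were in the middle of the distribution. The median difference over the 282 assays was -1.91, or 3.76-fold lower in KO. Among them 97 assays (34.4%) had a lower difference than miR-221, and 170 (60.3%) a lower one than miR-222. The SE of 0.60 for miR-221 and 0.72 for miR-222 lay on either side of the median SE of 0.70.

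**Figure D2:**
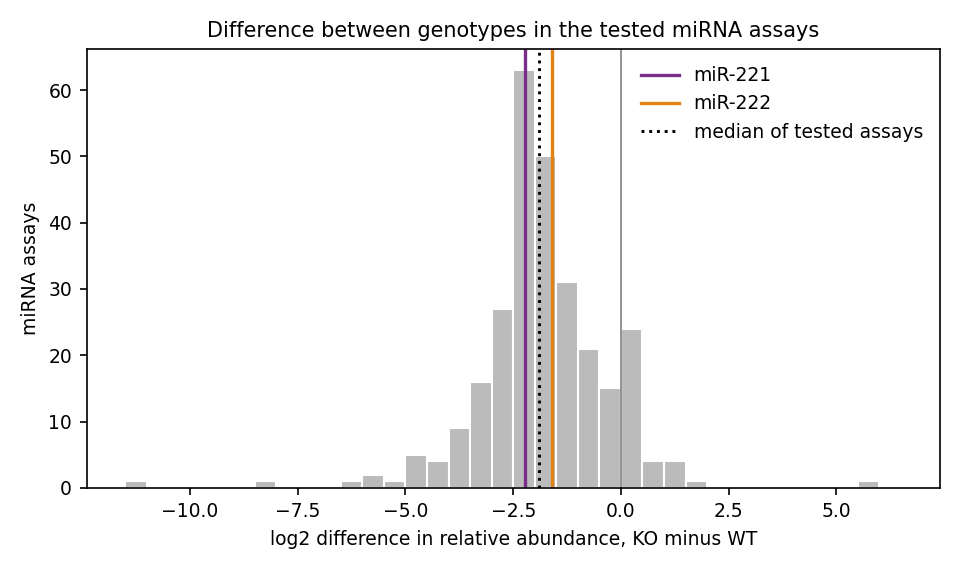
Number of miRNA assays (vertical axis, 282 in all) by log2 difference in relative abundance, KO minus WT (horizontal axis, bins of 0.5). The coloured lines mark miR-221 (-2.22) and miR-222 (-1.59), which lie on either side of the dotted line at the median (-1.91).

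Whether either miRNA moved by more or less than the middle of its block was examined by taking, in each sample, its level minus the median over the 140 assays of the block below the ceiling in all 6 samples. In WT that median was -2.78, -2.99 and -3.30, and in KO -6.14, -5.07 and -5.03. Measured from it, miR-221 stood at 3.37, 3.84 and 4.73 in WT and at 4.02, 3.97 and 4.45 in KO, so the groups overlapped. The difference was 0.17 (exact permutation p = 0.8, two-sided), and it turned to -0.14 without WT replicate 1. miR-222 stood at 4.20, 5.81 and 6.04 in WT and at 5.72, 6.30 and 6.42 in KO. Here the KO samples were higher on average by 0.80, with overlapping groups (exact permutation p = 0.3, two-sided), and by 0.22 without WT replicate 1. By pair of the same replicate number it was higher in KO in 3 of 3, by 1.52, 0.49 and 0.39. The exact test by sign changes gave p = 0.25, the smallest that 3 pairs allow. WT replicate 3 was above KO replicate 1, so another pairing can give another count. With the mean of the block's assays as the reference in the limma fit, the difference of miR-221 was -0.34 ± 0.50 (SE; adjusted p = 0.782) and that of miR-222 was 0.29 ± 0.60 (adjusted p = 0.839). The calls above therefore refer to levels per endogenous control RNA, not to the level among miRNAs.

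The 2 members of the cluster could be compared with each other without any reference, as the Ct of miR-221 minus that of miR-222 in one sample. Each assay has its own efficiency, so the size of this value is not a ratio of molecules, and the comparison is of how it changed. It was 0.824, 1.97 and 1.31 cycles in WT replicates 1, 2 and 3 and 1.70, 2.32 and 1.98 cycles in KO replicates 1, 2 and 3. It was higher in KO in 3 of 3 pairs, by 0.876, 0.350 and 0.667 cycles, although the groups overlapped, since WT replicate 2 was above KO replicate 1. The mean difference of 0.631 did not pass (exact permutation p = 0.2, two-sided; 0.25 by sign changes within pairs, the smallest that 3 pairs allow). It ranged from 0.359 to 0.934 when any 1 sample was left out. In each pair by replicate number, then, miR-221 was lowered more than miR-222, and the test did not separate the amounts. The count of pairs depends on this pairing, which no label states. With WT replicate 2 set against KO replicate 1 the order would be reversed.

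**Figure D3:**
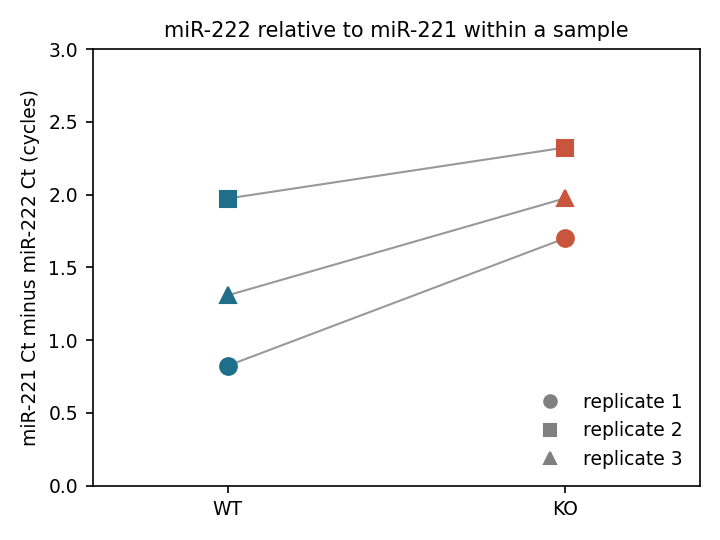
Ct of miR-221 minus Ct of miR-222 in the same sample, in cycles (vertical axis), for WT and KO cultures; lines join samples with the same replicate number. All 3 lines go up from WT to KO, by 0.350 to 0.876 cycles, while WT replicate 2 (1.97) lies above KO replicate 1 (1.70).

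miR-1928, whose sequence above has the same seed, is read by an assay in the second block of the panel. Ct values were 28.3, 31.3 and 28.1 for WT and 36.0, 32.9 and 27.8 for KO, far later than those of miR-221 and miR-222, and KO replicate 1 was above the ceiling. Its log2 relative abundance was -7.25, -12.0 and -9.08 in WT and, with the capped sample at its upper bound, -12.9, -13.7 and -8.57 in KO. The groups overlapped over most of their range. The difference was -2.26 ± 1.66 or lower (SE; limma, adjusted p = 0.295), and it ran from -3.82 without KO replicate 3 to -1.16 without WT replicate 1. This assay neither shared the call of miR-221 nor showed the separation of the samples seen for both cluster members.

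The authors' deposited table of relative quantities, scaled to the geometric mean of WT, gave miR-221 at 0.806, 0.900 and 1.38 in WT and 0.133, 0.252 and 0.342 in KO. For miR-222 the authors' deposited table gave 0.552, 1.37 and 1.32 in WT and 0.167, 0.488 and 0.520 in KO. In the authors' deposited table of fold changes KO over WT was 0.235 for miR-221 and 0.362 for miR-222, that is 4.25-fold and 2.76-fold lower. These folds are ratios of arithmetic means with 3 controls as reference, and are slightly smaller than the 4.67-fold and 3.01-fold from geometric means and 5 controls.

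By Pearson correlation of log2 relative abundance over the 6 samples, the assays most like miR-221 were miR-138 (r = 0.987), miR-30c (0.987) and miR-101b (0.984). Those most like miR-222 were miR-24 (0.989), miR-16 (0.980) and miR-20b (0.980). miR-221 and miR-222 correlated at 0.916 with each other, which placed miR-222 81st in likeness to miR-221 and miR-221 26th in likeness to miR-222. The median over all tested assays was 0.804 for miR-221 and 0.681 for miR-222; the assays share the 6 samples, the reference of their block and the common fall. None of the 6 most alike assays had the seed of miR-221 (0 of 6 matched). Among matched panel names only miR-221, miR-222 and miR-1928 carry it, so this count says little about seed and likeness. In differences, the 3 assays most like miR-222 were close to it, with -1.84 for miR-24, -1.37 for miR-16 and -1.55 for miR-20b (adjusted p = 0.0748, 0.132 and 0.0994, limma). The 3 most like miR-221 spread more widely around its -2.22, with -3.48 or lower for miR-138 (adjusted p = 0.0312; 1 KO sample at the ceiling), -1.73 for miR-30c (adjusted p = 0.0564) and -2.52 for miR-101b (adjusted p = 0.037).

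For the lists that follow, the share over all tested assays was 37.2% lower in KO and the median -1.91. Among miRNAs described, like miR-221 and miR-222, as promoting cell division, 4 of 13 tested fell (limma, adjusted p under 0.05) and 0 rose, a share near that of the panel, with a median of -1.66. Their members included miR-93 of the miR-106b cluster (-2.38; adjusted p = 0.034) and miR-19b of the miR-17 cluster (-0.85; adjusted p = 0.183), so miR-221 was near the lower end and miR-222 near the middle of this list. Of 20 tested miRNAs described as restraining division, such as let-7a (-2.91; adjusted p = 0.0312), 13 fell and 0 rose, with a median of -2.10. Of 19 tested assays tied to monocyte and macrophage differentiation 8 fell and 0 rose (median -1.98), and of 17 studied in vascular inflammation 7 fell and 0 rose (median -1.99), both again near the panel's share. Of 21 tested assays of other miRNAs of the X chromosome, where the cluster lies, 13 fell and 0 rose (median -2.03), from miR-652 (-3.62; adjusted p = 0.0312) among assays measured in all samples to miR-188-5p (0.47; adjusted p = 0.669). At an unadjusted p under 0.05 limma still gave 0 higher members in each of these lists, and 8, 18, 15, 9 and 16 lower ones in the order given. Without WT replicate 1, 2 or 3, or KO replicate 2, each of these 5 lists had 0 or 1 members that fell, and the panel had 2, 2, 2 and 3 assays. Without KO replicate 1 or 3 the panel had 101 and 112. In the order given, the lists had 4, 9, 5, 5 and 7 members that fell with a ceiling of 40 in place of 35, 3, 9, 4, 5 and 7 with the deposited relative quantities, 8, 16, 15, 7 and 13 among assays measured in all 6 samples, and 9, 13, 10, 7 and 11 with the replicate block. Over the whole panel the counts were 80, 79, 114 and 118 in the same order of settings, the last being 41.8% of 282 assays. Among assays measured in all 6 samples the lists had 13, 19, 18, 13 and 15 tested members. The number of panel assays tested there is not given here, so no share is set beside those counts. With the global mean as reference, without a reference or without the filter each of the 5 lists had 0 or 1.

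Since miR-221 and miR-222 are also made by endothelial and stromal cells, markers of other cell types were set beside them. Of 18 marker assays, 12 were tested and 1 fell, the epithelial miR-429, beside 37.2% of all tested assays. The median of the 12 was -1.18. The difference of miR-429 was -5.76 or lower, since KO replicates 1 and 2 were at Ct 40. Under other settings the number of markers that fell ran from 0, as with a ceiling of 40, to 2, as with the replicate block. The muscle miRNAs miR-1 and miR-133b and the liver miRNA miR-122 did not amplify in any sample. Another muscle miRNA, miR-133a, amplified below the ceiling in WT replicate 1 and KO replicate 1 only, so it was not among the tested markers. The stromal miRNAs miR-143 and miR-145 varied widely among WT cultures, with log2 relative abundances of -3.13, -4.15 and -9.92 and of -1.51, -2.24 and -8.78. The summed relative abundance of the markers, in percent of a signal at the mean control Ct, ran from 13.4% to 78.8% in WT and from 7.65% to 16.5% in KO, and 12 to 14 and 11 to 13 of them were below the ceiling. The sum pools cell types and weighs the earliest assays most. In WT replicate 1 these were miR-145 (Ct 22.6), miR-214 (24.1) and miR-143 (24.2), which were at 27.9, 29.0 and 29.0 in WT replicate 3. WT replicate 1 had the highest sum and the lowest miR-221 and miR-222 of the WT cultures. WT replicate 3 had the lowest sum and the highest miR-221, while miR-222 was highest in WT replicate 2. Among the KO cultures the order was the other way. KO replicate 1 had the lowest sum and the lowest level of both miRNAs, and KO replicate 3 the highest of each. The part of other cell types in the difference between genotypes was not tested. In bulk cultures fewer cells that make a miRNA and less of it per cell cannot be told apart.

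**Figure D4:**
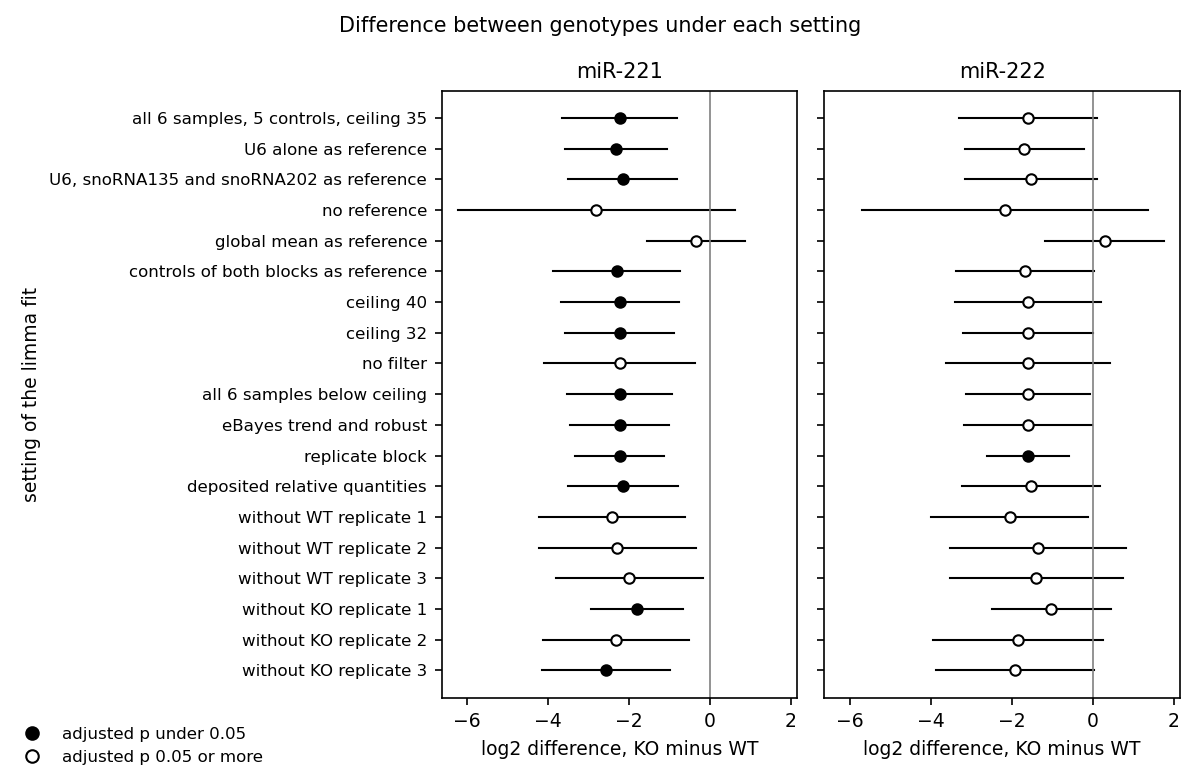
Log2 difference KO minus WT of miR-221 and miR-222 (horizontal axes; points with 95% confidence intervals) under each setting of the limma fit (vertical axis); filled points passed an adjusted p of 0.05. miR-221 is below 0 under every setting drawn and closest to it with the global mean (-0.34); miR-222 is at 0.29 with the global mean and passes with the replicate block.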

How the data were processed

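Ct scores of 608 assays (596 miRNAs, 10 controls, 2 of a plant miRNA) were deposited by the authors, with relative quantities, which are ratios scaled to WT, and fold changes. Per the labels' protocols, mirVana RNA was turned into cDNA and preamplified with TaqMan reagents; the instrument and later steps are not given in the sources used here. Each deposited ratio was recomputed from Ct minus the mean of U6, snoRNA135 and snoRNA202 of the block within 0.001 log2 for 563 of 596 assays, those of both members included.

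All tests used the Ct table. Ct was capped at 35, and log2 relative abundance taken against the 5 controls of the block. Genotypes were compared with limma 3.58.1 (R 4.3.3, two-sided, lmFit and eBayes) and p adjusted by Benjamini-Hochberg over the 282 tested assays. The code was run on simulated data with a common spread for both genotypes and part of the assays changed. In these data the median SD was 0.57 in WT and 0.98 in KO and most assays fell, so that run gives no error rate for them. Single values were compared by exact permutation in Python 3.11.15. The 3 cultures per group are labelled biological replicates, and their number limits precision. The replicate numbers pair the samples by the correlation of their deviations over assays, not by a stated batch; the block is an alternative. Members and lists were chosen with earlier results of these data known. Named were the members, panel assays with their seed, controls, the 3 assays most like each member, the 2 lowest and 2 highest differences of each list among assays measured in all samples, and detected markers; the text prints part of them.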

Additional observations from a re-analysis of the deposited data

How the results depend on the processing

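The difference of miR-221 kept its sign under all 18 alternatives and that of miR-222 under 17. miR-221 no longer passed without a reference (-2.80), with the global mean as reference (-0.34) and without a filter on low values (-2.22); leaving out 1 sample gave -2.56 to -1.80. miR-222 reversed with the global mean (0.29) and passed with the replicate block (-1.59); leaving out 1 sample gave -2.05 to -1.02. The global mean removes a shift common to all miRNAs by construction; the other causes were not tested. The replicate block changed no other call of the results on the members. The number of assays lower in KO was 105, but 2 without a reference, 2 with the global mean, 2 without a filter, and 2 to 112 leaving out 1 sample. The number higher was 1, but 2 with U6 alone, 0 without a reference (limma; 2 at an unadjusted p under 0.05), 2 with a ceiling of 32, and 1 to 3 leaving out 1 sample. miR-221 relative to the middle of its block (0.17) was -0.13 with a ceiling of 40, -0.047 with the median over all tested assays and -0.14 to 0.54 leaving out 1 sample. The control Ct difference (0.573) was -0.439 to 1.31 leaving out 1 sample. Of 27 other assays named by the rule, over 484 settings, 363 kept sign and call, 82 lost and 19 gained the call, and 20 reversed. With the global mean these were miR-30c (0.16), miR-24 (0.045), miR-16 (0.52), miR-20b (0.34), miR-17 (0.24), miR-125b-5p (0.67), miR-92a (0.86), miR-19b (1.04), miR-15a (0.62), miR-195 (0.62), miR-143 (1.15), miR-145 (1.25), miR-141 (0.34) and miR-199a-3p (0.68). Leaving out 1 sample, miR-143 ranged from -2.83 to 0.56, miR-145 from -2.94 to 0.69 (both above 0 without WT replicate 1 or 2) and miR-188-5p from -0.24 (without KO replicate 1) to 1.12; miR-188-5p was at -0.11 without a reference.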
